A study of Mus musculus with 9 samples.

Results

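The subject here is a list of 35 genes for lysosomal enzymes and membrane proteins, read from the probe sets annotated to them. Each gene was represented by 1 probe set, that of highest mean over the 9 arrays, which did not use the groups. All 35 had a probe set of their own among the 19938 genes named on the array, and 34 passed a filter on low levels together with 11963 genes in all. The gene left out, Manba (beta-mannosidase), had a mean log2 value between 3.57 and 3.61 in each group, below the filter at 3.86, and was not tested.

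Lysosomes are acidic compartments in which soluble hydrolases take apart proteins, glycans, glycosaminoglycans and lipids delivered by endocytosis and autophagy. The hydrolases reach them mostly through mannose 6-phosphate tags, while a proton pump, the V-ATPase, acidifies the lumen and a coat of glycosylated membrane proteins lines it. The transcription factors TFEB, TFE3 and MITF bind E-box elements in the promoters of many of these genes, and the kinase complex mTORC1, which is recruited to the lysosomal surface by nutrients, holds these factors in the cytoplasm. In fibroblasts, lysosomes also degrade internalised matrix.

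The measurements came from NIH-3T3, a mouse fibroblast line, at 48 hours after transfection with 25 nM RNA. The 3 groups of 3 arrays received a mimic of mmu-miR-378-3p, an inhibitor of the same microRNA, or a RISC-free siRNA as control RNA, each with the lipid reagent DharmaFECT 1. All groups thus carried reagent and a synthetic RNA, and no mimic or inhibitor of another sequence was among the samples used here, so a response to this microRNA and a response to a mimic or inhibitor of any sequence cannot be told apart. The series title states the aim as finding targets of miR-378-3p, whose own level was not analysed here. Values are log2 RMA values (background-corrected, quantile-normalized and summarised per probe set by the authors), and a difference of 1 is a doubling. They were compared with limma over all 9 arrays, with p-values adjusted by the Benjamini-Hochberg method over all 11963 genes and a threshold of 0.05. Only genes past it are said to have risen or fallen.

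The 9 fibroblast markers on the array were all above the filter, with mean log2 values from 6.94 to 11.2. Of 24 markers of macrophages and osteoclasts, epithelium, endothelium and muscle, 8 passed it, and none exceeded a mean of 4.89. Mimic 3 and inhibitor 1 lay at the ends of the first principal component (60.5% of the variance of the genes tested), at scores of -20.5 and 20.9, with the other arrays between -9.15 and 13.4. Identical values made up at most 3.58% of any 2 arrays. Mimic 3 was the lowest of the mimic arrays for 28 of the 34 lysosomal genes (82.4%) and for 57.7% of all genes tested. The part of these 2 arrays in a result was examined by leaving them out, and the counts with and without them are given below. The median SD of the lysosomal genes was 0.11 among mimic arrays, 0.06 among inhibitor arrays and 0.05 among controls. For all genes these medians were 0.09, 0.08 and 0.05. Bulk RNA cannot tell fewer expressing cells from less RNA per cell.

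The promoters are shown first because an E-box is the sequence feature by which lysosomal genes are best known. RefSeq promoters (GRCm38.p6, 250 bases before to 50 after the gene start) were found for 31 of the 35 genes, in 33 stretches. Gpr137b, Asah1, Galns and Ctsb had no entry. The motif TCACGTG, read as CACGTGA on the other strand, is the E-box CACGTG with one flanking base. It was present in 10 of these 33 promoters (30.3%), in 5.86% of the 12106 promoters of genes tested and in 3.77% of all 32851 promoters. CACGTG alone, which every copy of TCACGTG contains, was in 33.3%, 9.88% and 7.15% of the same sets. For each of the 10 genes, the copy nearest the gene start is printed with 8 bases on each side, the motif in capitals, on the strand on which it reads TCACGTG.
Arsa, chr15:89477427-89477449, minus strand: actcagtgTCACGTGttgtctgc
Ctsa, chr2:164833769-164833791, plus strand: gcagatgcTCACGTGaccagagc
Ctsd, chr7:142387911-142387933, plus strand: tcaacgggTCACGTGagacgcgg
Gaa, chr11:119267814-119267836, plus strand: ctgtgcgaTCACGTGtttgactc
Gla, chrX:134601185-134601207, plus strand: agagttgcTCACGTGaccgagat
Glb1, chr9:114401021-114401043, plus strand: cttctgagTCACGTGgcctacag
Lamp1, chr8:13159137-13159159, plus strand: tgaccacaTCACGTGcggaacgg
Mcoln1, chr8:3500466-3500488, minus strand: cgccgcggTCACGTGagcggggc
Naglu, chr11:101070012-101070034, plus strand: ccttcaggTCACGTGgcccgagg
Sgsh, chr11:119355525-119355547, plus strand: ccccacggTCACGTGcacggcag
The first base of the motif along the gene lay 16 to 194 bases before the start in 9 of these genes, and 4 bases after it in Ctsa.

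Whole promoters are shown for Arsa and Gla, because they hold the motif and their transcripts differed between mimic and inhibitor in opposite directions, as given further below. Capitals mark TCACGTG and CACGTGA, whose copies overlap by all but one base in Gla.
Arsa, chr15:89477375-89477674, minus strand: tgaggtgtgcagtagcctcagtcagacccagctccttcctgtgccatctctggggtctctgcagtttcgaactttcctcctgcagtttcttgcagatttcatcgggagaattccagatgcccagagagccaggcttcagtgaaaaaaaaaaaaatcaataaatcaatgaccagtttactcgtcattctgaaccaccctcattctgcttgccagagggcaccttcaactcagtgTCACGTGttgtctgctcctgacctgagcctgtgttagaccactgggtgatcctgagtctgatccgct
Gla, chrX:134600956-134601255, minus strand: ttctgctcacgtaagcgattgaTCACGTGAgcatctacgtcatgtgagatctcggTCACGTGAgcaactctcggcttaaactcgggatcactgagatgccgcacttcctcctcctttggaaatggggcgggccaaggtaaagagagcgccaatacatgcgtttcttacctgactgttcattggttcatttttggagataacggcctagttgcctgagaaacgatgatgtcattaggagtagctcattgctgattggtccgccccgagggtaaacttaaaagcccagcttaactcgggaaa

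The first question was whether lysosomal genes change with the mimic of miR-378-3p, and few did. With the mimic, Asah1 rose and Spns1 and Gpr137b fell, 3 of 34 genes tested (8.82%), beside 3.55% of all genes tested. Rises were 2.94% of the list, beside 1.1% of all genes, and falls 5.88%, beside 2.45%. In all 34 the log2 fold change had a median of -0.04, beside -0.01 for all genes, and 14 values were above 0 and 20 below. The mimic arrays lay wholly above the controls in 3 of the 34 genes (8.82%, beside 8.67% of all genes) and wholly below them in 6 (17.6%, beside 12.7%). Without mimic 3 and inhibitor 1 the 3 calls remained and Lipa rose and Gla fell as well, 5 calls in all, with a median of 0.02, while 484 of all genes rose and 427 fell.

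The second question was whether they change with the inhibitor of miR-378-3p. With the inhibitor, Gpr137b and Asah1 rose and Hexa, Arsa, Galns and Npc2 fell, 6 of 34 genes (17.6%), beside 14.9% of all genes tested. The 2 rises were 5.88% of the list, beside 11.1% of all genes, and the 4 falls were 11.8%, beside 3.76%. The inhibitor arrays lay wholly below the controls in 12 genes (35.3%, beside 12.8% of all genes) and wholly above them in 4 (11.8%, beside 24.9%). The median log2 fold change was -0.04, beside 0.01 for all genes. After quantile normalization of the deposited values 2 members rose and 9 fell, Cd63, Naglu, Gaa, Man2b1 and Neu1 being added, while 1269 of all genes rose and 1022 fell. Without mimic 3 and inhibitor 1 the split was 2 to 8, beside 1665 to 831 of all genes. After median centring it was 2 to 1, with Npc2 as the fall, beside 1101 to 270 of all genes.

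The third comparison set the mimic directly against the inhibitor and did not use the control level. Npc2, Hexa, Lamp1 and Arsa were higher with the mimic and Gpr137b, Spns1, Scarb2, Gla and Gusb were lower, 9 of 34 genes (26.5%), beside 26.8% of all genes. The 4 higher genes were 11.8% of the list, beside 6.91% of all genes, and the 5 lower genes 14.7%, beside 19.9%. The median was 0.06, beside -0.02 for all genes. The mimic arrays lay wholly above the inhibitor arrays in 7 genes (20.6%, beside 12.9%) and wholly below in 7 (20.6%, beside 25.7%). The split of members changed with scaling, as did that of all genes. After quantile normalization 15 members were higher and 4 lower, beside 1670 and 2028 of all genes. After median centring 1, Npc2, was higher and 5 were lower, beside 545 and 2322 of all genes. Without mimic 3 and inhibitor 1 the split was 11 to 3, beside 1158 to 1767 of all genes. In all, 11 of the 34 genes were called in at least 1 comparison.

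**Figure D1:**
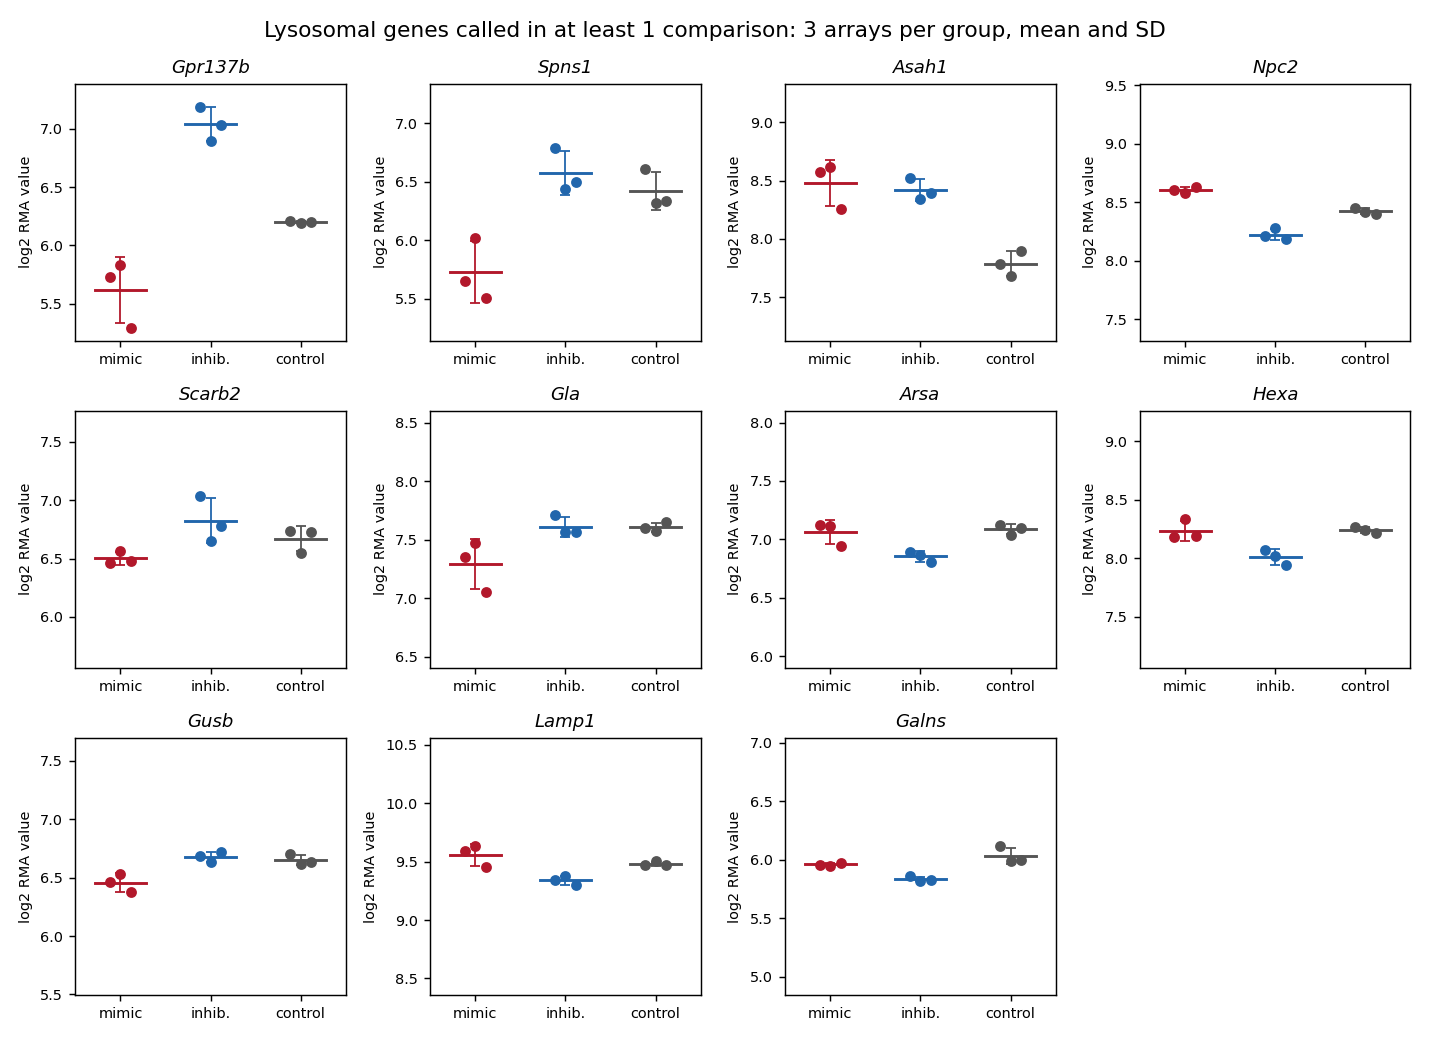
Log2 RMA values (vertical axis, the same span in each panel) of the 11 lysosomal genes called in at least 1 comparison, with 1 point per array, a bar at the mean and whiskers of 1 SD for mimic, inhibitor and control (n = 3 each). Gpr137b is low with the mimic (5.30 to 5.83) and high with the inhibitor (6.90 to 7.19), with controls at 6.20 to 6.21, while Asah1 is above the controls in both transfected groups.

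Among the membrane proteins and transporters, Gpr137b (gene ID 83924, probe set 10407803) was called in all 3 comparisons. It encodes a multi-spanning protein of the lysosomal membrane that, in human cells, binds Rag GTPases and takes part in the control of mTORC1. Its log2 values were 5.73, 5.83 and 5.30 on the mimic arrays, 7.19, 6.90 and 7.03 on the inhibitor arrays and 6.21, 6.20 and 6.20 on the controls. The 3 groups did not overlap, and the controls lay between the others. The mimic mean of 5.62 ± 0.28 (SD, n = 3) was 0.58 ± 0.12 (SE) below that of the controls at 6.20 ± 0.01, a fold of 0.668 (limma, adjusted p = 0.0280). The inhibitor mean of 7.04 ± 0.15 was 0.84 ± 0.12 (SE) above the controls, a fold of 1.79 (limma, adjusted p = 0.00165). These 2 comparisons share the control arrays. Set directly against the inhibitor, the mimic gave a log2 fold change of -1.42 ± 0.12 (SE; 95% interval -1.69 to -1.15; limma, adjusted p = 5.27e-05), with calls in all 9 fits that left out a single array. The fall with the mimic was called in 4 of these 9 fits and was lost without any one of the 3 controls, mimic 1 or inhibitor 3, with limma's adjusted p reaching 0.115, and also with no level filter, after median centring or with only the 6 arrays compared in the fit. Without mimic 3 and inhibitor 1 it was -0.42 (limma, adjusted p = 0.00235).

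Spns1 (gene ID 73658, probe set 10567838), which encodes a lysosomal exporter of lysophospholipids, fell with the mimic. Its log2 values were 5.65, 6.02 and 5.51 on the mimic arrays, 6.79, 6.44 and 6.50 on the inhibitor arrays and 6.61, 6.32 and 6.33 on the controls. All mimic arrays lay below all others, while inhibitor and control arrays overlapped. The mimic difference from the controls was -0.70 ± 0.14 (SE; limma, adjusted p = 0.0219) and that from the inhibitor -0.85 ± 0.14 (SE; limma, adjusted p = 0.00146). The inhibitor differed from the controls by 0.16, with a 95% interval of -0.15 to 0.46 (limma, adjusted p = 0.511). Against the controls the fall was called in 5 of 9 fits with a single array left out, and it was lost without any one of the 3 controls or mimic 1, with limma's adjusted p reaching 0.109, and also with no level filter, after median centring or with 6 arrays. Without mimic 3 and inhibitor 1 it was -0.59 (limma, adjusted p = 0.0133).

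Scarb2 and Lamp1 were called between mimic and inhibitor and in neither comparison with the controls. Scarb2 encodes LIMP-2, the membrane receptor that carries beta-glucocerebrosidase to lysosomes, and Lamp1 encodes one of the main glycoproteins of the lysosomal membrane. Scarb2 had log2 values of 6.46, 6.57 and 6.47 with the mimic, 7.03, 6.65 and 6.78 with the inhibitor and 6.74, 6.55 and 6.73 in controls. The mimic arrays lay below the inhibitor arrays by 0.32 ± 0.09 (SE; limma, adjusted p = 0.0250), and the controls overlapped both. The call was lost without mimic 1, inhibitor 1 or inhibitor 3 (limma, adjusted p of up to 0.0777), without mimic 3 and inhibitor 1 together (limma, adjusted p = 0.0827), after quantile normalization (limma, adjusted p = 0.0713), with no level filter and with 6 arrays. Lamp1 had values of 9.59, 9.63 and 9.45 with the mimic, 9.34, 9.38 and 9.30 with the inhibitor and 9.47, 9.50 and 9.47 in controls. The mimic was higher than the inhibitor by 0.22 ± 0.06 (SE; limma, adjusted p = 0.0152), a call lost without mimic 1 or inhibitor 3 (limma, adjusted p of up to 0.0586) and after median centring.

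The other 3 membrane genes, Lamp2, the tetraspanin gene Cd63 and Mcoln1, which encodes the calcium channel TRPML1, were called in no comparison. Their log2 fold changes were 0.08, -0.05 and 0.03 with the mimic and -0.08, -0.31 and -0.03 with the inhibitor. Cd63 was the closest to a call, at 7.11, 6.93 and 6.71 on the inhibitor arrays and 7.22, 7.12 and 7.34 on the controls, groups that did not overlap (limma, adjusted p = 0.0774, with a 95% interval of -0.54 to -0.08).

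The 7 proteases were called in no comparison (limma, with 0, 0 and 3 unadjusted p under 0.05 for mimic against control, inhibitor against control and mimic against inhibitor). Among all 11963 genes these counts were 1903, 3448 and 4607, and the shares called were 3.55%, 14.9% and 26.8%. The inhibitor arrays lay wholly above the controls in 2 proteases (28.6%, beside 24.9% of all genes) and wholly below in 2 (28.6%, beside 12.8%). The proteases were the serine carboxypeptidase Ctsa, which also protects beta-galactosidase and sialidase, the cysteine cathepsins Ctsb, Ctsl, Ctsz and Ctsk, the aspartic protease Ctsd and the tripeptidyl peptidase Tpp1. With the mimic their log2 fold changes ran from -0.12 to 0.05, and their 95% intervals reached from -0.29 to 0.16 at the widest. With the inhibitor they ran from -0.11 to 0.12, with intervals from -0.31 to 0.27. Ctsd and Ctsl had the 2 lowest values of mimic against inhibitor, -0.19 each (limma, adjusted p = 0.0740 and 0.0660). Ctsd had log2 values of 9.87, 9.92 and 9.63 with the mimic, 9.99, 10.00 and 10.03 with the inhibitor and 9.90, 9.98 and 9.89 in controls, so that inhibitor arrays lay just above all others and mimic 3 stood lowest. Ctsk, the collagen-degrading cathepsin of osteoclasts, stood at 4.17 to 4.34 on the 9 arrays, close to the filter.

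**Figure D2:**
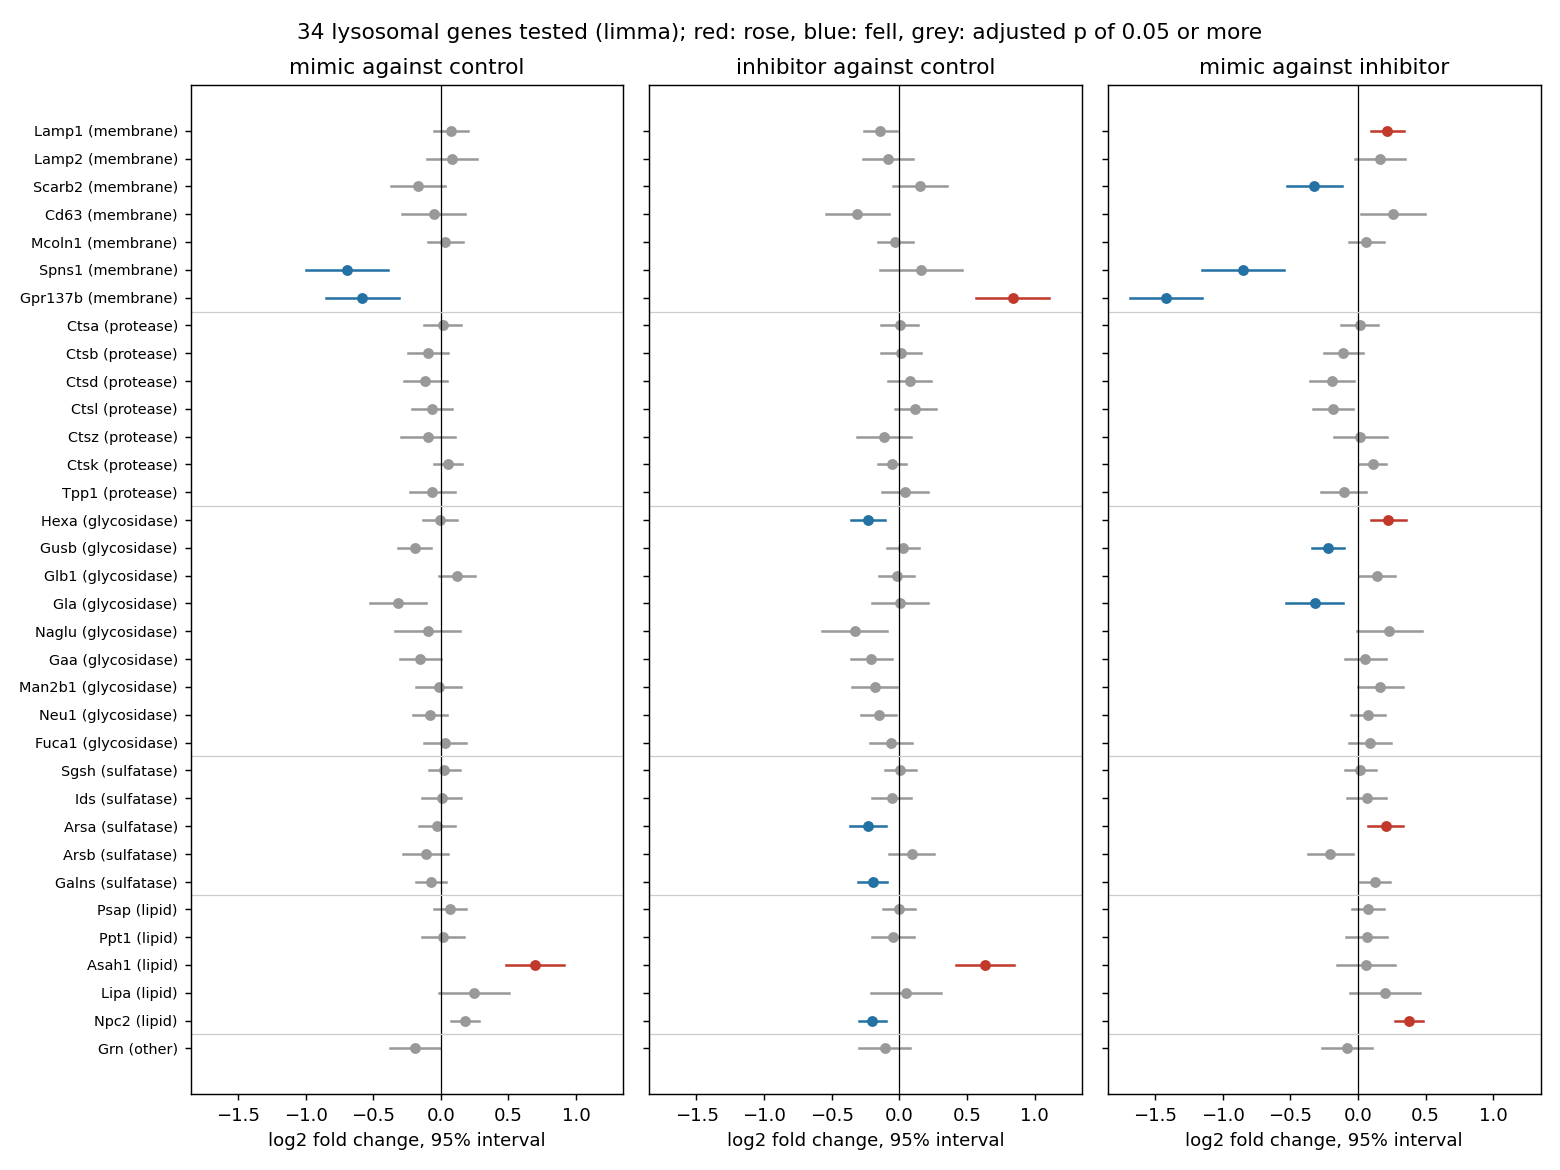
Log2 fold change (horizontal axis) with its 95% interval from limma for the 34 genes tested, ordered by role, in the 3 comparisons, with red for rose or higher, blue for fell or lower and grey for an adjusted p of 0.05 or more. The proteases stay within -0.19 and 0.12 in every panel, whereas Gpr137b spans -1.42 to 0.84.

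Of the 10 glycosidases, 9 were tested, and Hexa fell with the inhibitor. Hexa encodes the alpha subunit of beta-hexosaminidase A, which degrades the ganglioside GM2. Its log2 values were 8.18, 8.33 and 8.19 with the mimic, 8.07, 8.02 and 7.94 with the inhibitor and 8.27, 8.24 and 8.21 in controls. The inhibitor arrays lay below all others, at -0.23 ± 0.06 from the controls (SE; limma, adjusted p = 0.0228), and mimic and control overlapped. The mimic was higher than the inhibitor by 0.23 ± 0.06 (SE; limma, adjusted p = 0.0149). The fall with the inhibitor was lost without any one of the 3 controls or inhibitor 3 (limma, adjusted p of up to 0.0905), and the difference between mimic and inhibitor without inhibitor 3 (limma, adjusted p = 0.0624). Both were lost after median centring.

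Gla and Gusb stood lower with the mimic than with the inhibitor. Gla encodes alpha-galactosidase A, which removes terminal galactose from glycolipids, and Gusb beta-glucuronidase, which acts on glycosaminoglycans. Gla had log2 values of 7.35, 7.47 and 7.05 with the mimic, 7.71, 7.56 and 7.56 with the inhibitor and 7.60, 7.58 and 7.65 in controls. Every mimic array lay below every other array, with mimic 3 lowest. The difference from the inhibitor was -0.32 ± 0.09 (SE; limma, adjusted p = 0.0295) and that from the controls -0.32 ± 0.09 (SE; limma, adjusted p = 0.109). The first was lost without mimic 1, inhibitor 1 or inhibitor 3 (limma, adjusted p of up to 0.107) without mimic 3 and inhibitor 1 together (limma, adjusted p = 0.0823), with no level filter and with 6 arrays. Gusb had values of 6.46, 6.53 and 6.38 with the mimic, 6.68, 6.63 and 6.72 with the inhibitor and 6.70, 6.62 and 6.64 in controls. Its mimic arrays also lay below all others, by 0.22 ± 0.05 from the inhibitor (SE; limma, adjusted p = 0.0134, lost without inhibitor 3 at 0.0537 and after quantile normalization at 0.169) and by 0.19 ± 0.05 from the controls (SE; limma, adjusted p = 0.0898).

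The other 6 glycosidases tested were called in no comparison. They were Glb1 (beta-galactosidase), Naglu (which cleaves heparan sulfate), Gaa (which digests glycogen), Man2b1 (alpha-mannosidase), Neu1 (sialidase) and Fuca1 (fucosidase). With the inhibitor all 6 had negative log2 fold changes, at -0.02, -0.33, -0.21, -0.18, -0.15 and -0.06, beside 5478 of all 11963 genes. With the mimic they were 0.12, -0.10, -0.15, -0.02, -0.08 and 0.03. In Naglu, Gaa, Man2b1 and Neu1 the inhibitor arrays lay wholly below the controls (limma, adjusted p = 0.0665, 0.0697, 0.140 and 0.103), as in 12.8% of all genes. The mimic arrays of Gaa also lay wholly below the controls (limma, adjusted p = 0.313). Naglu showed the widest spread of any member among the controls, at 7.22, 6.78 and 6.90, against 6.76, 6.66 and 6.49 on the inhibitor arrays in that comparison.

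Of the 5 sulfatases, Arsa and Galns fell with the inhibitor. Arsa encodes arylsulfatase A, which desulfates the myelin lipid sulfatide, and Galns an enzyme that removes sulfate from keratan and chondroitin sulfate. Arsa had log2 values of 7.13, 7.11 and 6.94 with the mimic, 6.89, 6.87 and 6.80 with the inhibitor and 7.13, 7.04 and 7.10 in controls. The inhibitor arrays lay below all others, by 0.23 ± 0.06 from the controls (SE; limma, adjusted p = 0.0257), and the mimic was higher than the inhibitor by 0.21 ± 0.06 (SE; limma, adjusted p = 0.0271). Galns had values of 5.96, 5.95 and 5.97 with the mimic, 5.86, 5.82 and 5.83 with the inhibitor and 6.12, 5.99 and 5.99 in controls. Its 3 groups did not overlap, and the inhibitor lay 0.20 ± 0.05 below the controls (SE; limma, adjusted p = 0.0235). Both falls were lost without control 1, control 3, inhibitor 2 or inhibitor 3, and that of Arsa also without control 2 (limma, adjusted p of up to 0.0995 and 0.0979), and the higher value of Arsa with the mimic than with the inhibitor was lost without mimic 1, mimic 2, inhibitor 2 or inhibitor 3 (limma, adjusted p of up to 0.101). All 3 calls were lost after median centring, that of Galns also with an intensity trend and that of Arsa between mimic and inhibitor also with 6 arrays. The remaining sulfatases were Sgsh and Ids, which act on heparan sulfate, and Arsb, which acts on dermatan and chondroitin sulfate. Their log2 fold changes were 0.03, 0.01 and -0.11 with the mimic and 0.01, -0.06 and 0.09 with the inhibitor, with no call. Arsb, the only member with a second probe set, had differences from the controls of -0.07 with the mimic and -0.12 with the inhibitor there, where the inhibitor value had the opposite sign.

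Among the enzymes and cofactors that handle lipids, Asah1 rose with both RNAs. Asah1 (gene ID 11886, probe set 10578361) encodes acid ceramidase, which splits ceramide into sphingosine and fatty acid. Its log2 values were 8.57, 8.62 and 8.26 with the mimic, 8.52, 8.34 and 8.40 with the inhibitor and 7.79, 7.68 and 7.89 in controls. Mimic and inhibitor arrays overlapped, and all 6 lay above the controls. The mimic mean of 8.48 ± 0.20 (SD, n = 3) was 0.70 ± 0.10 (SE) above the control mean of 7.79 ± 0.11, a fold of 1.62 (limma, adjusted p = 0.00424). The inhibitor mean of 8.42 ± 0.09 was 0.63 ± 0.10 (SE) above it, a fold of 1.55 (limma, adjusted p = 0.00203). Both comparisons use the same 3 control arrays. Mimic and inhibitor differed by 0.06, with a 95% interval of -0.15 to 0.27 (limma, adjusted p = 0.672), and by 0.22 without mimic 3 and inhibitor 1 (limma, adjusted p = 0.0391). Both rises were called in all 9 fits with a single array left out (highest limma adjusted p = 0.0293 with the mimic and 0.0124 with the inhibitor).

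Npc2 (gene ID 67963, probe set 10401519) encodes the luminal protein that binds cholesterol and hands it to NPC1 for export. Its log2 values were 8.60, 8.58 and 8.63 with the mimic, 8.21, 8.28 and 8.18 with the inhibitor and 8.45, 8.42 and 8.40 in controls. The 3 groups did not overlap, in the reverse order of Gpr137b, and the spread within each was at most 0.05 (SD). The inhibitor lay 0.20 ± 0.05 below the controls (SE; limma, adjusted p = 0.0177), and the mimic 0.18 ± 0.05 above them (SE; limma, adjusted p = 0.0647). With no level filter the difference between mimic and controls was called. The mimic was higher than the inhibitor by 0.38 ± 0.05 (SE; limma, adjusted p = 0.000334), in all 9 fits with a single array left out. The fall with the inhibitor was lost without control 1, control 2 or inhibitor 3 (limma, adjusted p of up to 0.0739).

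The last 3 genes of this group, Psap (precursor of the saposins, which assist lipid hydrolases), Ppt1 (which removes palmitate from proteins) and Lipa (the acid lipase for cholesteryl esters), were called in no comparison. Their log2 fold changes were 0.07, 0.02 and 0.25 with the mimic and -0.00, -0.05 and 0.05 with the inhibitor. Lipa varied most among them, with 7.77, 8.02 and 7.47 on the mimic arrays, 7.70, 7.45 and 7.52 on the inhibitor arrays and 7.47, 7.49 and 7.56 on the controls, so that mimic 3 stood level with the lowest control and the other mimic arrays above all controls. Grn, which encodes progranulin, a secreted glycoprotein that is cut into granulins in lysosomes, had values of 9.24, 9.29 and 8.96 with the mimic, 9.31, 9.16 and 9.27 with the inhibitor and 9.39, 9.38 and 9.29 in controls. It was not called in any comparison (limma, adjusted p = 0.306 with the mimic and 0.455 with the inhibitor).

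**Figure D3:**
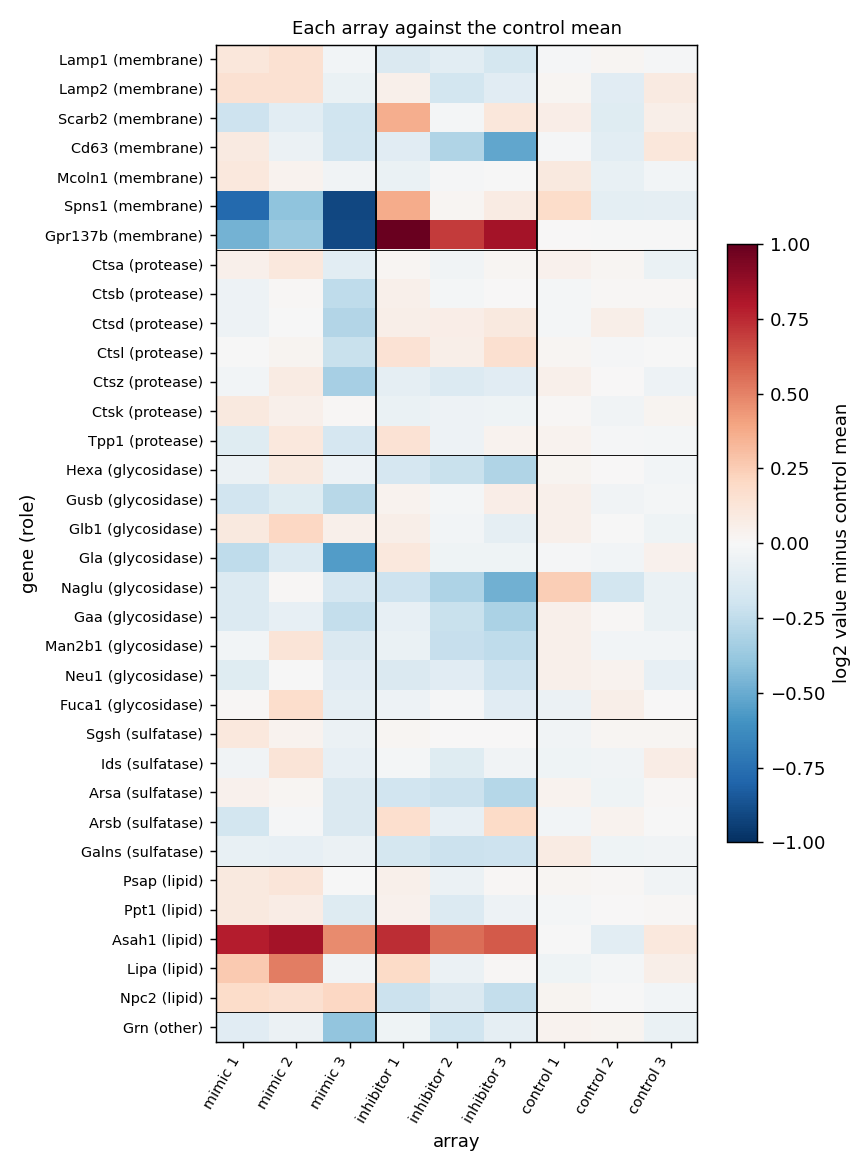
Each of the 34 genes (rows, by role) on each of the 9 arrays (columns: mimic, inhibitor, control), coloured by the log2 value minus the mean of the controls, from -1 (blue) to 1 (red). Asah1 is red on all 6 mimic and inhibitor arrays, Gpr137b is blue on the mimic and red on the inhibitor arrays, and mimic 3 is the lowest mimic array for 28 genes.

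The 10 genes with TCACGTG in their promoter were set beside the 20 tested genes whose promoter lacks it. With the mimic the medians of the log2 fold change were -0.01 and -0.03, and with the inhibitor -0.02 and -0.06. The 4 genes with no promoter entry, Asah1, Ctsb, Galns and Gpr137b, are in neither group. With the mimic none of the 10 was called and 1 of the 20 fell, beside calls in 3.55% of all genes tested. With the inhibitor only Arsa was called among the 10 and 2 of the 20 fell, beside calls in 14.9% of all genes. Between mimic and inhibitor the medians were 0.06 and 0.07, with Arsa and Lamp1 higher and Gla lower among those with the motif. Of the 20 without it, 2 were higher and 3 lower, beside calls in 26.8% of all genes. The motif was thus present in members that differed in either direction and in 7 of the 10 that were not called. Of the genes for factors that bind it, only Tfeb, Tfe3 and Mitf were read, and none of them was called. Log2 fold changes of Tfeb, Tfe3 and Mitf were 0.02, 0.03 and 0.10 with the mimic and -0.06, 0.15 and 0.07 with the inhibitor (limma, adjusted p of 0.128 or more). Their mean log2 values over the 9 arrays were 4.13, 6.15 and 4.76, so Tfeb stood close to the filter at 3.86. In Tfe3 the inhibitor arrays lay wholly above the controls, as in 24.9% of all genes. These are transcript levels, and the position of the proteins in the cell was not measured.

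Genes around the list were read from 5 further lists, each with its share called in the 3 comparisons. Of all genes tested, 3.55% were called with the mimic, 14.9% with the inhibitor and 26.8% between mimic and inhibitor. Of 27 other lysosomal genes tested, none was called with the mimic (limma, with 10 unadjusted p under 0.05, beside 1903 of all 11963 genes). With the inhibitor Clcn7, which encodes the lysosomal chloride-proton exchanger, rose by 0.38 (limma, adjusted p = 0.0284) and Ctso, another cysteine cathepsin, fell by 0.34 (limma, adjusted p = 0.0184). Mimic against inhibitor gave -0.63 for Clcn7, 0.36 for Ctso and -0.25 for the dipeptidyl peptidase gene Dpp7. The median of this list was 0.02 with the mimic, -0.03 with the inhibitor and 0.04 between them, and its shares called were 0%, 7.41% and 11.1%. Of 15 V-ATPase subunits, Atp6v0d1 fell with the mimic (-0.35; limma, adjusted p = 0.0424). With the inhibitor Atp6v1b2 (0.27) and Atp6v1h (0.20) rose and Atp6v1f (-0.34) and Atp6v0e (-0.23) fell, so subunits of the same pump were called in both directions. Between mimic and inhibitor 2 subunits were higher and 4 lower, the largest differences being those of Atp6v0e (0.38), Atp6v1f (0.35), Atp6v0a1 (-0.34) and Atp6v1c1 (-0.25). The list medians were -0.06, -0.01 and -0.12 in the 3 comparisons, and the shares called 6.67%, 26.7% and 40%.

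Of 13 genes of mannose 6-phosphate tagging and sorting, none was called with the mimic, and 1 rose and 2 fell with the inhibitor. With the mimic 3 unadjusted limma p were under 0.05, beside 1903 of all 11963 genes. Gnptab and Gnptg encode subunits of the phosphotransferase that starts the tag. Gnptab averaged 6.31 ± 0.18 with the inhibitor and 5.79 ± 0.02 in controls (SD, n = 3 each), a rise of 0.52 (limma, adjusted p = 0.00643), while Gnptg fell by 0.24 (limma, adjusted p = 0.0150). The sorting receptor gene Sort1 fell by 0.19 (limma, adjusted p = 0.0217). The mannose 6-phosphate receptor gene M6pr, also listed, had no probe set of its own and was not tested. Mimic against inhibitor gave -0.76 for Gnptab, 0.29 for Gnptg and -0.43 for the retromer subunit gene Vps35. The list medians were -0.03, 0.07 and -0.03 in the 3 comparisons, and the shares called 0%, 23.1% and 23.1%.

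Of 19 genes for MiT/TFE factors and the control of mTORC1 at lysosomes, 1 fell with the mimic, 3 rose and 3 fell with the inhibitor, and 3 were higher and 7 lower with the mimic than with the inhibitor. Flcn, which encodes folliculin, a GTPase-activating protein for Rag GTPases, fell with the mimic (-0.32; limma, adjusted p = 0.0192). Its partner gene Fnip1 rose by 0.48 with the inhibitor, and the Ragulator subunit genes Lamtor2, Lamtor5 and Lamtor4 fell by 0.33, 0.26 and 0.24 (limma, adjusted p of at most 0.0396 for the 4). The remaining calls with the inhibitor were smaller rises of Mtor (0.23) and Rragc (0.19; limma, adjusted p = 0.0440 and 0.0361). Mimic against inhibitor gave -0.69 for Fnip2, -0.47 for Fnip1, 0.41 for Lamtor2 and -0.32 for Tsc1. The list medians were -0.00, 0.07 and -0.09, and the shares called 5.26%, 31.6% and 52.6%, beside 3.55%, 14.9% and 26.8% of all genes. Of 28 autophagy genes, 2 rose and 1 fell with the mimic and 2 fell with the inhibitor. Wipi1, an early factor of autophagosome formation, and Map1lc3a, which encodes an LC3 protein of the autophagosome membrane, rose by 0.34 and 0.29 with the mimic, and the cargo receptor gene Sqstm1 fell by 0.30 (limma, adjusted p of at most 0.0454). With the inhibitor Gabarap, of the same family as LC3, fell by 0.39 and Map1lc3a by 0.23 (limma, adjusted p of at most 0.0242). Between mimic and inhibitor 4 were higher and 1 lower, with Map1lc3a at 0.52, Gabarap at 0.47, Sqstm1 at -0.41 and Wipi1 at 0.36. The list medians were 0.00, -0.02 and 0.02, and the shares called 10.7%, 7.14% and 17.9%. Between mimic and inhibitor Atp6v1b2, Atp6v1h and Lamtor4, named above for the inhibitor, were also called, at -0.18, -0.24 and 0.24. Of the calls named from these 5 lists, with Mtor and Rragc not counted, 0 of 5 with the mimic, 5 of 15 with the inhibitor (Gnptab, Fnip1, Lamtor2, Atp6v1f and Gabarap) and 15 of 21 between mimic and inhibitor held in all 9 limma fits that dropped a single array. Those that did not in the last comparison were Dpp7, Atp6v1b2, Atp6v0a1, Atp6v1c1, Lamtor4 and Tsc1.

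**Figure D4:**
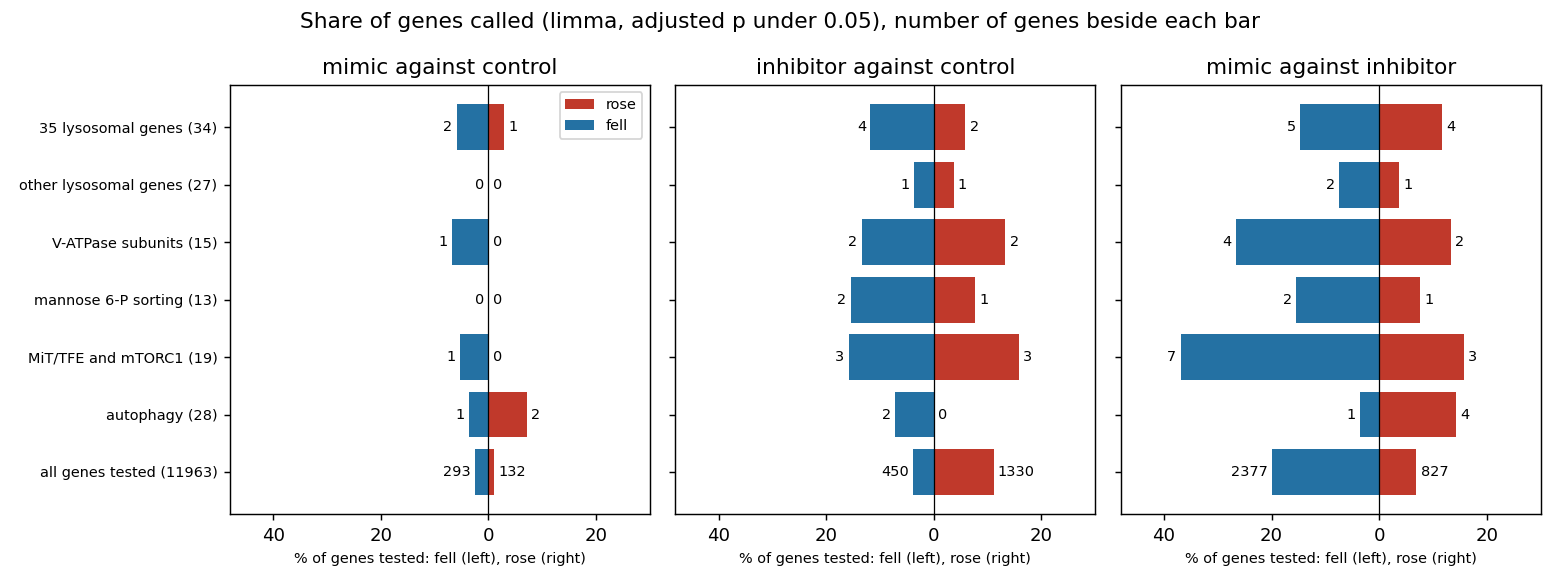
Share of genes tested that were called by limma in each list (horizontal axis, percent, with rises or higher values to the right and falls or lower values to the left), with the number of genes beside each bar and the number tested in parentheses. For mimic against inhibitor, 5 of the 34 lysosomal genes were lower and 4 higher, while of all genes tested 2377 were lower and 827 higher.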

How the data were processed

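The deposited values are log2 RMA expression, 1 for each probe set on each array, made with Partek 6.5 per the submitters' processing notes. No genome build for the probe sets was given in the sources used here. The table held 28853 probe sets and 0 unused sample columns. Platform annotation gave 21789 probe sets 1 gene, 1621 several and 5443 none. The level filter dropped genes whose mean lay under the 40th percentile. Group means were modelled over the whole table with limma 3.58.1 in R 4.3.3 (6 residual and 4.37 prior degrees of freedom). The fit was tested on simulated data. Intervals and standard errors are the moderated ones. The number of arrays limits the precision. Whether the triplicates were separate cultures is not stated in the labels, and the p-values therefore measure only the spread among these arrays, possibly a technical one.

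The members, lists and tests were chosen with earlier results of these data known. Each of the 35 genes is reported. The 11 called in any comparison are given per array, and each surrounding list by its counts and up to 4 called genes per comparison, with Tfeb, Tfe3, Mitf, Mtor and Rragc. The alternatives tried are given in the closing section. Sites for the microRNA in transcripts were not searched. Promoters are from RefSeq. Python 3.11.15 and matplotlib 3.10.9 served for motifs and figures.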

Additional observations from a re-analysis of the deposited data

How the results depend on the processing

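Each count was recomputed with another level filter, quantile normalization, median centring, 6 arrays, the replicate number as a block, an intensity trend, the mean of all probe sets, without mimic 3 and inhibitor 1, and without each array. With the mimic, the 3 lysosomal calls became 1 after median centring and 1 with 6 arrays, and 5 without both arrays, and the 425 calls among all genes became 774 (335 rises and 439 falls) after quantile normalization, 231 after median centring, 248 with 6 arrays and 911 without both. Without any level filter Spns1 and Gpr137b were not called with the mimic, while Asah1 and Npc2 rose. With the inhibitor, the 6 lysosomal calls became 11 after quantile normalization, 3 after median centring and 10 without both arrays, while the 1780 among all genes (1330 rises and 450 falls) became 2291, 1371 and 2496 in the same fits. Between mimic and inhibitor, the 9 lysosomal calls became 19 after quantile normalization and 14 without both arrays, and the 3204 among all genes (827 higher and 2377 lower) split into 1670 and 2028 after quantile normalization. Leaving out single arrays gave 1 to 4 lysosomal calls with the mimic (1 without control 1, 2 or 3 or mimic 1), 2 to 10 with the inhibitor (2 without control 1 or inhibitor 3, 3 without control 3 and 10 without mimic 3) and 3 to 13 between them (3 without inhibitor 3 and 5 without mimic 1), and 133 to 582, 974 to 2790 and 2310 to 3669 among all genes. The cause of these shifts was not tested. Same-numbered arrays did not deviate together (correlations from -0.59 to 0.22, and an array correlated best with its own number in 6 of 18 cases). With the replicate number as a block, 3, 7 and 9 lysosomal genes and 289, 1575 and 3028 of all genes were called. Over 3339 recomputed fold changes of named genes, called or not in the main fit, 203 lost a call, 74 gained one, and 0 called values turned their direction. Only fold changes called in the main fit could lose a call. Of the lysosomal calls, 1 of 3 with the mimic, 2 of 6 with the inhibitor and 3 of 9 between them held without any single array.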
